A study of Mus musculus with 8 samples.

Results

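Levels of mRNA were compared for 35 genes of endoplasmic reticulum (ER) stress and secretory protein folding in mouse hepatic stellate cells, the pericytes of liver sinusoids that store vitamin A. The genes were chosen by name, with earlier results of these data known. They are the stress sensors of the ER, the transcription factors these drive, and the chaperones and disulfide enzymes of the ER lumen. The machinery that degrades misfolded proteins and targets of the factor ATF4 complete the set. Each was represented by the probe set that the platform's annotation assigns to its symbol alone, and where there were several, by the one with the highest mean over the 8 arrays. All 35 of 35 were measured, among 19938 genes in all. Reverted cells (4 arrays) came from male Balb/c mice that were given the liver toxin CCl4 to induce fibrosis (0.5 µl per g, 4 injections) and were then left to recover for 45 days. Quiescent cells (4 arrays) came from normal male Balb/c mice. The cells of both groups were isolated on a density gradient and by flow sorting for retinoid autofluorescence, with lysis immediately afterwards, so cells without enough retinoid to pass the gate were not measured. The labels state an age of 18 weeks for all mice and, in another sentence, of 16 weeks for the reverted group, and leave unsaid whether mice were pooled for an array. The p-values therefore cover the spread among these 8 arrays alone, and part of that spread may be technical.

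Proteins bound for secretion or for membranes enter the ER, where chaperones such as BiP (encoded by Hspa5) and the lectins calnexin and calreticulin fold them and disulfide isomerases join their cysteines. When unfolded proteins accumulate, the sensors IRE1 (Ern1), PERK (Eif2ak3) and ATF6 start the unfolded protein response: IRE1 splices the mRNA of Xbp1, PERK slows translation and favours ATF4, and cleaved ATF6 enters the nucleus. Together these raise chaperones, degradation factors and, under lasting stress, the pro-apoptotic factor CHOP (Ddit3). Stellate cells that become matrix-producing myofibroblasts secrete large amounts of collagen, which passes through this machinery. Much of the pathway acts through splicing, phosphorylation and cleavage, which the level of a probe set does not measure.

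Few differences in the mRNA levels of these genes were detected between reverted and quiescent cells. Of the 35 genes, 1 rose and 0 fell at an adjusted p under 0.05 in limma, which fits all genes together and adjusts by Benjamini-Hochberg over all of them, and 34 did not pass. The gene that rose was Edem2, which encodes an ER protein of glycoprotein quality control. Over all genes 0.712% were called in either direction (142 of 19938), 0.527% as higher and 0.186% as lower, and 1 of 35 is a share of 2.86%. At an unadjusted p under 0.05 there were 3 of the 35, against 16% of all genes. The mean was lower in reverted cells for 28 of the 35 genes and higher for 7, with a median log2 change of -0.07, while over all genes 53.6% had a lower mean and the median was -0.01. Direction varied with level: among the 9969 genes above the median level, where 31 of the 35 lie, 35.9% had a lower mean and the median log2 change was 0.03. The 95% interval of the change lay within 1.5-fold in either direction for 32 of the 35 genes.

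**Figure D1:**
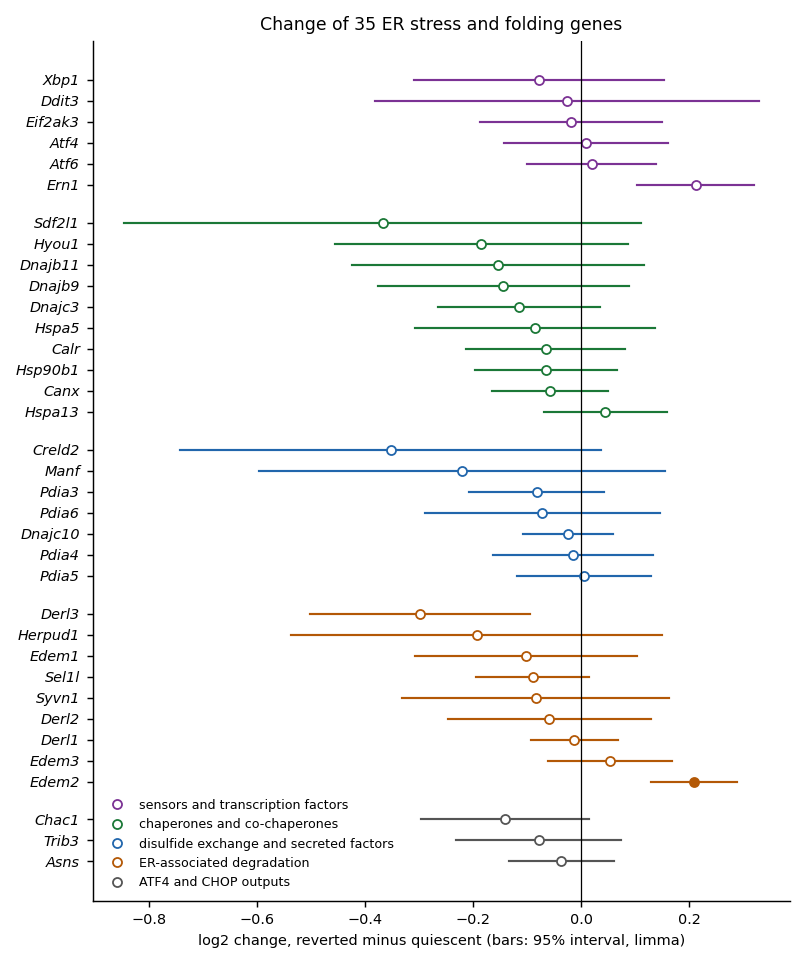
Log2 change (x axis, reverted minus quiescent) of each of the 35 genes (y axis), coloured by role; points are limma estimates, bars their 95% intervals, and the filled point is the single gene with an adjusted p under 0.05. Most points lie slightly left of 0 with intervals that include it, Edem2 and Ern1 lie at 0.21, Derl3 at -0.30, and Sdf2l1 has the widest interval.

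Many ER chaperone genes carry an ER stress response element (ERSE), whose CCAAT end binds the factor NF-Y and whose CCACG end binds cleaved ATF6 or spliced XBP1. The promoters are shown as a description. The 35 genes were chosen by name for this response, so matches among them are no separate result, and their part in the levels was not tested. They run from 250 bases before to 50 after the annotated start, in RefSeq's table for GRCm38.p6, which holds 30 of the 35 genes. Hspa13, Manf, Atf6, Derl1 and Hyou1 are not in it. The ERSE, spelled CCAAT, any 9 bases and CCACG and searched on both strands, was found in 39 of 32851 promoters (0.119%) and in those of 9 of the 30 genes: Hspa5, Hsp90b1, Calr, Canx, Pdia6, Dnajc3, Creld2, Derl3 and Syvn1. The shorter form ERSE-II, spelled ATTGG, any 1 base and CCACG, was found in 12 promoters (0.0365%), including Herpud1 and Dnajb11, and no promoter held both forms. The promoter of Hspa5 (chr2:34771840-34772139, + strand) has its match at bases 186 to 204 of 300, shown in capitals:
Hspa5: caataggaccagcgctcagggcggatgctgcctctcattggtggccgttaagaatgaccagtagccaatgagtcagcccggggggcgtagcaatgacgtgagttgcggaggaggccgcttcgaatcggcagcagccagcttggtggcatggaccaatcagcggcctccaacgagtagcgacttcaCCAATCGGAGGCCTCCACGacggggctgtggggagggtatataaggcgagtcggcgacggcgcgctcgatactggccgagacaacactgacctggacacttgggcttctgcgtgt
In the stretches that follow, the ERSE match is in capitals with 12 bases on either side, written along the strand of the gene. Hsp90b1 holds 2 matches. Those of Calr, Creld2 and Derl3 and the downstream one of Hsp90b1 read on the opposite strand, so that CGTGG comes first.
Hsp90b1: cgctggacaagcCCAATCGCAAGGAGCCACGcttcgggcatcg
Hsp90b1: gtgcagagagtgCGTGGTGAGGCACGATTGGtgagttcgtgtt
Calr: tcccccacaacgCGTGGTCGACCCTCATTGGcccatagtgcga
Canx: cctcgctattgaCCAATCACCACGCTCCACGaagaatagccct
Pdia6: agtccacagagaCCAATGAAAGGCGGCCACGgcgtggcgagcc
Dnajc3: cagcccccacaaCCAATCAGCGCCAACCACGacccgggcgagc
Creld2: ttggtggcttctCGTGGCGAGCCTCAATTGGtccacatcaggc
Derl3: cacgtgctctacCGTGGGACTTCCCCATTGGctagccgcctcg
Syvn1: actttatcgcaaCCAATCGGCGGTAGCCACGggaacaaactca
These promoters lie at chr10:86705395-86705694 (-) for Hsp90b1, chr8:84846882-84847181 (-) for Calr, chr11:50325624-50325923 (-) for Canx, chr12:17266339-17266638 (+) for Pdia6, chr14:118937682-118937981 (+) for Dnajc3, chr15:88819396-88819695 (+) for Creld2, chr10:75893148-75893447 (+) for Derl3 and chr19:6046326-6046625 (+) for Syvn1. The ERSE-II matches, in capitals, were those of Herpud1 (chr8:94386179-94386478 (+)) and Dnajb11 (chr16:22857595-22857894 (+)):
Herpud1: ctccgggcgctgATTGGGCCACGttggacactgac
Dnajb11: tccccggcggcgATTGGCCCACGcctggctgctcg
All 11 genes with a match to either element had a lower mean in reverted cells, by a log2 change between -0.35 (Creld2) and -0.06 (Canx), and 0 of the 11 passed the test. Among the 19 genes with a promoter in the table and no exact match to either, 14 had a lower mean and 1, Edem2, was called. The unfolded protein response element TGACGTGG, a binding sequence of XBP1 and ATF6, was found in 0.676% of promoters and in 0 of these 30. The ATF4 target sequence TGATGCAA was found in 0.895% of promoters and in 2 of the 30, Chac1 and Herpud1. A match describes these letters only and is not evidence of binding. Other spellings and bases outside this window were not searched, so a gene without a match may still have the element.

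Of the 6 sensors and transcription factors, 0 passed the test. Ern1, which encodes the sensor IRE1, measured 10.98, 11.01, 11.08 and 10.94 in the 4 reverted arrays, against 10.69, 10.80, 10.86 and 10.80 in the 4 quiescent arrays. All 4 reverted arrays lay above all 4 quiescent arrays (log2 change 0.21, SE 0.05, limma adjusted p = 0.102), but the difference did not pass. Over all genes 4.64% showed such a separation upward, 4.09% downward and 8.73% in either direction, and among the 35 genes 2 (Ern1 and Edem2) did so upward and 0 downward.

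The PERK gene Eif2ak3 measured 10.21, 10.46, 10.20 and 10.31 in the 4 reverted arrays, against 10.32, 10.43, 10.15 and 10.34 in the 4 quiescent arrays (log2 change -0.02, SE 0.07, limma adjusted p = 0.916). Atf6 measured 11.39, 11.55, 11.52 and 11.57 in the 4 reverted arrays, against 11.51, 11.47, 11.41 and 11.56 in the 4 quiescent arrays (log2 change 0.02, SE 0.05, limma adjusted p = 0.873). The groups overlapped in both genes, and their changes were smaller than their standard errors.

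Xbp1, whose mRNA is spliced by IRE1, measured 13.03, 13.31, 13.30 and 13.38 in the 4 reverted arrays, against 13.46, 13.48, 13.07 and 13.33 in the 4 quiescent arrays (log2 change -0.08, SE 0.10, limma adjusted p = 0.718). Reverted array 1 and quiescent array 3 were the lowest of their groups, and the other 6 lay between 13.30 and 13.48. A gene-level probe set does not separate spliced from unspliced Xbp1 mRNA. Atf4, which is regulated mainly at translation, measured 10.22, 10.25, 10.37 and 10.35 in the 4 reverted arrays, against 10.30, 10.20, 10.19 and 10.46 in the 4 quiescent arrays (log2 change 0.01, SE 0.07, limma adjusted p = 0.961).

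Ddit3, the gene of CHOP, measured 10.32, 10.29, 10.38 and 10.55 in the 4 reverted arrays, against 10.81, 10.18, 10.03 and 10.61 in the 4 quiescent arrays (log2 change -0.03, SE 0.16, limma adjusted p = 0.946). The quiescent arrays spanned both the highest and the lowest of the 8 values, with an SD of 0.37 in quiescent cells against 0.12 in reverted cells (n = 4 each), and the 95% interval of the change ran from -0.38 to 0.33. Adjusted for the mean of the hepatocyte markers, the log2 change of Ddit3 was 0.21 in place of -0.03. These markers had higher means in reverted cells, so such an adjustment cannot fully separate them from the group. The direction of Ddit3 also turned without quiescent array 1 (0.11), quiescent array 4 (0.04) or reverted array 2 (0.01). The directions of Atf4, Atf6 and Eif2ak3 turned under some alternatives as well, none of which called any of them.

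Of the 10 chaperone and co-chaperone genes, 9 had a lower and 1, Hspa13, a higher mean in reverted cells, and 0 passed the test (median log2 change -0.10). Hspa5, the gene of the master chaperone BiP that also holds the sensors inactive, measured 13.29, 13.54, 13.50 and 13.62 in the 4 reverted arrays, against 13.71, 13.62, 13.30 and 13.66 in the 4 quiescent arrays. The group means were 13.49 ± 0.14 in reverted and 13.57 ± 0.18 in quiescent cells (SD, n = 4 each), a difference smaller than either SD (log2 change -0.09, SE 0.10, limma adjusted p = 0.68, 95% interval -0.31 to 0.14). Reverted array 1 and quiescent array 3 were again the lowest of their groups. Adjusted for the hepatocyte marker mean, the log2 change of Hspa5 was 0.0060.

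Hsp90b1, which encodes the HSP90 of the ER lumen (GRP94), measured 13.31, 13.48, 13.46 and 13.50 in the 4 reverted arrays, against 13.60, 13.54, 13.40 and 13.47 in the 4 quiescent arrays (log2 change -0.07, SE 0.06, limma adjusted p = 0.59). Calr, encoding the calcium-binding lectin chaperone calreticulin, measured 13.31, 13.53, 13.45 and 13.57 in the 4 reverted arrays, against 13.59, 13.58, 13.40 and 13.55 in the 4 quiescent arrays (log2 change -0.07, SE 0.07, limma adjusted p = 0.63). Canx, encoding its membrane-bound relative calnexin, measured 13.41, 13.50, 13.47 and 13.49 in the 4 reverted arrays, against 13.62, 13.55, 13.47 and 13.46 in the 4 quiescent arrays (log2 change -0.06, SE 0.05, limma adjusted p = 0.558). The groups overlapped in each of the 3 genes. These probe sets lie near the top of the scale, which ended at 14.8, and a difference there can be compressed.

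Sdf2l1, which encodes a partner of the ER chaperone ERdj3, had the widest difference of the 35 genes without passing the test. It measured 10.78, 11.18, 10.90 and 11.33 in the 4 reverted arrays, against 11.82, 11.65, 10.78 and 11.41 in the 4 quiescent arrays (log2 change -0.37, SE 0.21, limma adjusted p = 0.416). Within the quiescent group alone its values spanned 1.05 on the log2 scale, and its within-group SD of 0.37 lay at percentile 99.2 of all genes. The 95% interval of its change ran from -0.85 to 0.11.

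The remaining chaperone genes were Hyou1 (an HSP70 relative that exchanges nucleotides on BiP), Hspa13, and the J-domain partners of BiP encoded by Dnajb9, Dnajb11 and Dnajc3. Hyou1 averaged 11.72 ± 0.17 in reverted and 11.90 ± 0.23 in quiescent cells (SD, n = 4 each), with a log2 change of -0.19. The log2 changes of Dnajb11, Dnajb9 and Dnajc3 were -0.15, -0.14 and -0.12, and that of Hspa13 was 0.04, with adjusted p between 0.417 (Dnajc3) and 0.675 (Hspa13) for these 5 genes. Dnajc3 has 2 probe sets with identical values, of which 1 was used.

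Of the 7 genes of disulfide exchange and of secreted stress factors, 6 had a lower mean in reverted cells and 0 passed. Creld2, which encodes a secreted factor with disulfide isomerase activity that is induced by ER stress, measured 10.82, 11.40, 10.96 and 11.30 in the 4 reverted arrays, against 11.75, 11.59, 11.01 and 11.55 in the 4 quiescent arrays (log2 change -0.35, SE 0.17, limma adjusted p = 0.352, 95% interval -0.74 to 0.04). Only quiescent array 3 kept the quiescent values from lying above all reverted values. Manf, encoding a secreted cytoprotective protein held in the ER by BiP, measured 9.95, 10.22, 10.29 and 10.50 in the 4 reverted arrays, against 10.81, 10.59, 10.01 and 10.44 in the 4 quiescent arrays (log2 change -0.22, SE 0.17, limma adjusted p = 0.524). The spread of both genes between arrays of a group was among the widest of all genes, at percentiles 98.4 and 98.2.

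The 4 isomerase genes and the reductase gene Dnajc10 (ERdj5) differed less. The log2 change was -0.08 for Pdia3, which serves glycoproteins bound by calnexin and calreticulin, -0.07 for Pdia6, -0.02 for Pdia4, 0.00 for Pdia5 and -0.02 for Dnajc10. Their adjusted p lay between 0.475 (Pdia3) and 0.972 (Pdia5). Pdia3 averaged 12.90 ± 0.09 in reverted and 12.98 ± 0.07 in quiescent cells (SD, n = 4 each). Pdia4 has a further probe set, which read 6.15 in reverted and 6.14 in quiescent cells, against 12.69 and 12.70 for the one used.

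Of the 9 genes of ER-associated degradation, 1 rose and 8 did not pass. Edem2, whose protein in mammals takes part in the trimming of mannose that marks misfolded glycoproteins for degradation, measured 10.57, 10.52, 10.55 and 10.53 in the 4 reverted arrays, against 10.33, 10.30, 10.35 and 10.36 in the 4 quiescent arrays. The means were 10.54 ± 0.02 in reverted and 10.34 ± 0.03 in quiescent cells (SD, n = 4 each), a 1.16-fold difference (log2 change 0.21, SE 0.04, limma adjusted p = 0.0357). The difference is small, and the SD within groups of 0.027 lay at percentile 2.24 of all genes. Its call was lost without any single array except quiescent array 4, with adjusted p up to 0.133 (without reverted array 3). It was also lost after quantile normalization (0.0746), with an intensity trend and robust variance (0.0542), and on adjustment for hepatocyte markers (0.12) or immediate early genes (0.0918). Under all 20 alternatives the log2 change stayed between 0.16 and 0.22. Its relatives Edem1 and Edem3 did not pass, with log2 changes of -0.10 (adjusted p = 0.593) and 0.05 (adjusted p = 0.618).

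Derl3, a derlin of secretory tissues that ER stress induces, had the widest difference among the degradation genes and measured 7.76, 7.64, 7.58 and 7.47 in the 4 reverted arrays, against 8.04, 7.95, 7.65 and 7.99 in the 4 quiescent arrays. It did not pass (log2 change -0.30, SE 0.09, limma adjusted p = 0.174). The groups overlapped through reverted array 1 and quiescent array 3 alone. Without these 2 arrays its log2 change was -0.43 with an adjusted p of 0.0405 in limma, a comparison added after the data were seen. Leaving them out separates the groups by construction, so this call is no support. With either of them left out singly Derl3 was not called. Its level was below the median of all genes (percentile 45.8), where a change may be understated. Derl1 and Derl2, the derlins of most tissues, had log2 changes of -0.01 and -0.06.

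Herpud1, which organises the degradation complex and is a target of both ATF6 and ATF4, measured 11.84, 12.03, 11.72 and 12.12 in the 4 reverted arrays, against 12.36, 12.14, 11.66 and 12.32 in the 4 quiescent arrays (log2 change -0.19, SE 0.15, limma adjusted p = 0.542). Quiescent array 3 and reverted array 3 were the lowest of the 8. Sel1l, the adaptor of the ubiquitin ligase HRD1, measured 11.91, 12.02, 11.89 and 11.90 in the 4 reverted arrays, against 12.09, 12.02, 11.94 and 12.03 in the 4 quiescent arrays (log2 change -0.09, SE 0.05, limma adjusted p = 0.371). Syvn1, which encodes that ligase, averaged 10.95 ± 0.12 in reverted and 11.03 ± 0.23 in quiescent cells (SD, n = 4 each, adjusted p = 0.717).

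**Figure D2:**
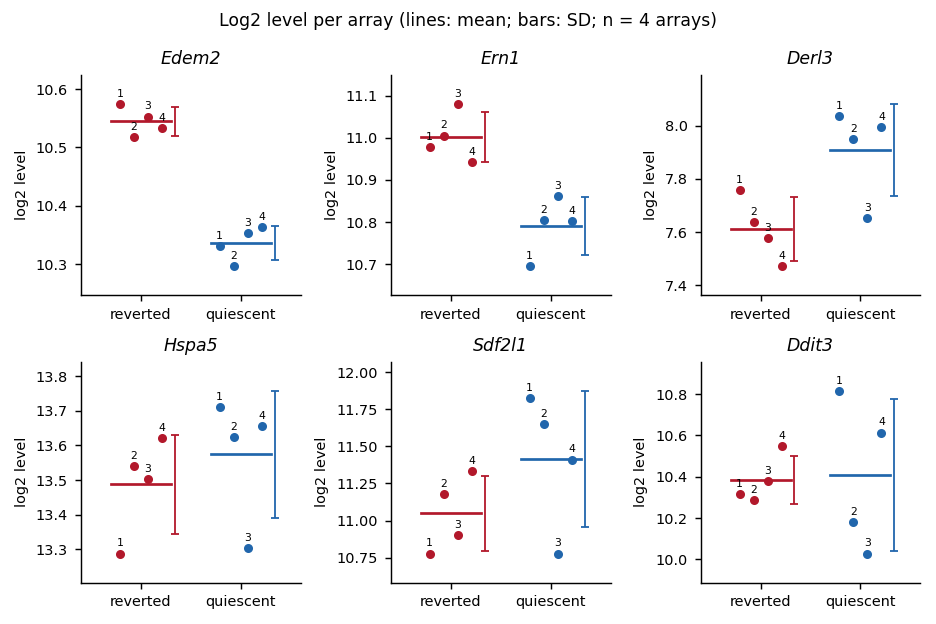
Log2 level (y axis, a scale of its own in each panel) of 6 genes in the 4 reverted (red, left) and 4 quiescent (blue, right) arrays; numbers are the arrays, lines the means and bars the SD. Edem2 and Ern1 separate the groups, the groups overlap in Derl3 through reverted array 1 and quiescent array 3, and in Hspa5 and Sdf2l1 these arrays are the lowest of their groups.

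The 3 outputs of ATF4 and CHOP had slightly lower means in reverted cells, and 0 passed. Chac1, which encodes a glutathione-degrading enzyme, measured 7.84, 7.70, 7.65 and 7.54 in the 4 reverted arrays, against 7.87, 7.92, 7.78 and 7.73 in the 4 quiescent arrays (log2 change -0.14, SE 0.07, limma adjusted p = 0.352). The pseudokinase gene Trib3 and the asparagine synthetase gene Asns had log2 changes of -0.08 (adjusted p = 0.578) and -0.04 (adjusted p = 0.68). All 3 lay below the median level of all genes, at percentiles 45.7, 44.6 and 25.6, so that changes may be understated. Chac1 is shown here with its TGATGCAA match, which reads on the opposite strand, in capitals (chr2:119350992-119351291 (+)):
Chac1: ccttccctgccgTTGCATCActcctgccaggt
Among 30 measured genes of a wider list of ATF4 and integrated stress response genes, such as amino acid transporters, serine synthesis enzymes and tRNA synthetases, 0 passed. Their means were higher in reverted cells in 24 of 30, with a median log2 change of 0.07, while 64.1% of all genes above the median level, where 22 of the 30 lie, had a higher mean. The smallest p were those of the haem-regulated eIF2 alpha kinase gene Eif2ak1 (log2 change 0.14, adjusted p = 0.188), the seryl-tRNA synthetase gene Sars (0.13, adjusted p = 0.194) and the mitochondrial serine hydroxymethyltransferase gene Shmt2 (0.18, adjusted p = 0.202). Of the 30, 2 (Eif2ak1 and Sars) had all reverted arrays above all quiescent arrays, against 4.64% of all genes.

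Most of the 35 genes deviated together from array to array within the groups. In reverted array 1, 25 of the 35 genes had the lowest value of the reverted group, and in quiescent array 3, 27 of 35 had the lowest of the quiescent group. Over all genes these arrays were the lowest of their groups for 23.9% and 20.4%. For 21 of the 35 genes both arrays were the lowest, against 7.28% of all genes. At the other end, reverted array 4 was the highest of its group for 19 genes and quiescent array 1 for 20. The mean deviation of the 35 genes from their group means was -0.10 in reverted array 1 and -0.19 in quiescent array 3, and lay between -0.01 and 0.11 in the other 6 arrays. The same 2 arrays stood apart over all genes, at 12.3 and 11.5 on the component with the second largest share of variance (17.9%), while the other 6 lay between -6.78 and -0.25. Their medians over all genes were also the highest of all arrays, at 8.14 and 8.12, while the other 6 lay between 8.08 and 8.09. The low values of the 35 genes thus coincide with a shift of the whole array. Without these 2 arrays, a comparison added after the data were seen, limma called 56 of all genes in place of 142 and did not call Edem2. It called Derl3 lower, but the groups of Derl3 overlap through these 2 arrays alone, so that call is no separate support.

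**Figure D3:**
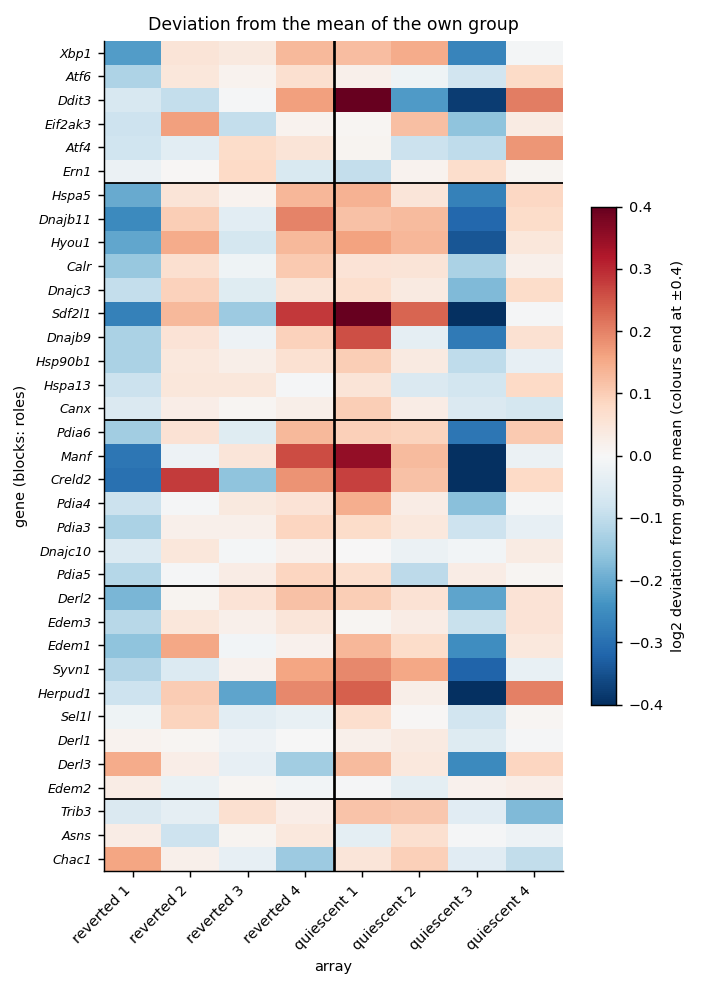
Deviation of each of the 35 genes (rows, in blocks by role) from the mean of its own group in each array (columns; reverted left, quiescent right), on the log2 scale with colours ending at ±0.4. Blue columns at reverted array 1 and quiescent array 3 run through most rows of the chaperone, disulfide and degradation blocks, while Edem2, Derl1 and the ATF4 outputs stay pale or differ.

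The likeness between genes was described by Pearson's r of the deviations from the group means over the 8 arrays. All genes of an array share its RNA and normalization, and the deviations leave 6 degrees of freedom. Over the 595 pairs of the 35 genes the median r was 0.58, and 56.5% of pairs exceeded 0.5. Over all 198751953 pairs of genes the median was 0.00 and 15.2% exceeded 0.5, and over pairs of genes above the median level the values were 0.10 and 19.9%. Such likeness was not particular to the 35 genes. The values were 0.62 and 55.6% for 10 cytosolic heat shock genes and 0.53 and 52.6% for 13 immediate early genes. In the 5 other lists of secretory and ATF4 genes the median ran from 0.01 to 0.36. Among the roles of the 35 genes, chaperone genes were the most alike, with a median r of 0.88 over 45 pairs. The median was 0.61 for the disulfide and secreted group, 0.61 for degradation, 0.37 for sensors and transcription factors and 0.28 for the 3 ATF4 outputs. Without reverted array 1 and quiescent array 3 the median over the 35 genes was 0.18, with 30.8% of pairs above 0.5 against 21.6% over all genes, so that much of the likeness rests on these 2 arrays. Without quiescent array 3 alone it was 0.40.

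Set against Hspa5, 27 of the other 34 genes had an r above 0.5 and 14 an r above 0.9, while over all other genes 12.9% and 0.782% did. The closest were Derl2 (0.98), Dnajb11 (0.97), Pdia6 (0.96), Hyou1 (0.95), Xbp1 (0.94) and Calr (0.94). Among the sensors, Atf6 stood at 0.88, Eif2ak3 at 0.68 and Ern1 at -0.51. Edem2 stood at -0.51, Chac1 at -0.32 and Asns at -0.15, and these 4 were the only ones of the 34 below 0 over the 8 arrays. Without the 2 low arrays, 18 of 34 exceeded 0.5, against 15.6% of all other genes, and 0 exceeded 0.9, against 1.07%. Of these 18, 17 had also exceeded 0.5 over the 8 arrays, and the other was Pdia5. Without the 2 arrays the r of Ern1 was -0.95 and that of Edem2 0.06, so the negative value of Edem2 rests on them. The values were 0.87 for Herpud1, 0.81 for Dnajb9, 0.77 for Sdf2l1, 0.40 for Xbp1 and 0.18 for Edem1. These values rest on still fewer arrays, and the share of all genes with an r as low as that of Ern1 was not computed.

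**Figure D4:**
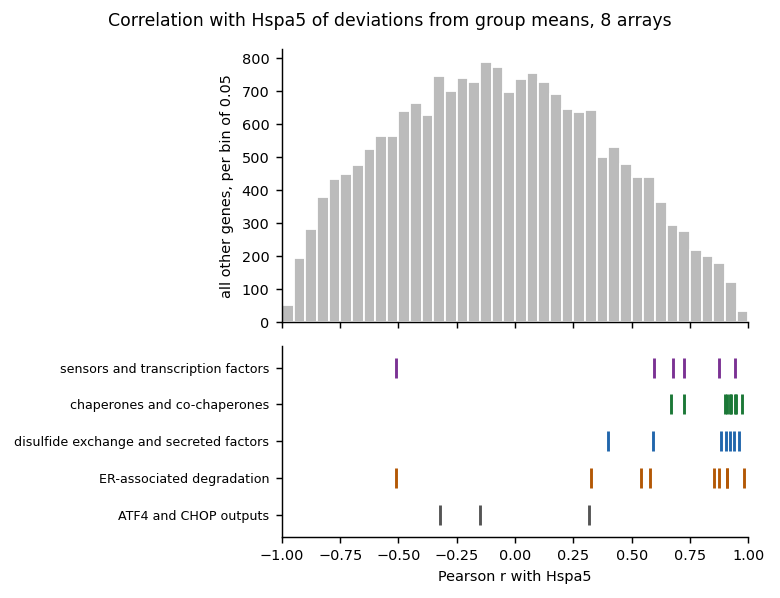
Pearson r with Hspa5 (x axis) of deviations from group means over 8 arrays: above, the number of all other genes per bin of 0.05; below, a tick for each of the other 34 genes by role. Of these genes 27 lie above 0.5, and Ern1 and Edem2 lie at -0.51.

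The genes with an ERSE or ERSE-II match, apart from Hspa5 itself, had a median r with Hspa5 of 0.91 (10 genes, from 0.33 for Derl3 to 0.97 for Dnajb11). The 19 genes with a promoter and neither match, among them the ATF4 outputs, had a median of 0.68, from -0.51 to 0.98. Without reverted array 1 and quiescent array 3, r ran from -0.29 (Derl3) to 0.87 (Herpud1) in the genes with a match. In those without, it ran from -0.95 (Ern1) to 0.81 (Dnajb9). The median within-group SD was 0.16 in the 11 genes with a match and 0.10 in the 19 without. Derl2 and Xbp1, with an r of 0.98 and 0.94, have neither match in this window, and the sets were not tested against each other.

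Outside the set, the genes above the median level most like Hspa5 were the oncostatin M receptor gene Osmr (r = 0.99), Wdr66 (0.99), the ER-to-Golgi tethering factor gene Uso1 (0.98), the clathrin adaptor gene Ap2b1 (0.98) and the HSP90 co-chaperone gene Ptges3 (0.98), among 9938 genes ranked over 8 arrays. Osmr measured 11.70, 12.12, 12.17 and 12.34 in the 4 reverted arrays, against 11.94, 11.68, 11.11 and 11.70 in the 4 quiescent arrays, and Uso1 measured 10.90, 11.15, 11.09 and 11.21 in the 4 reverted arrays, against 11.31, 11.26, 10.95 and 11.21 in the 4 quiescent arrays. In both genes reverted array 1 and quiescent array 3 were the lowest of their groups. None of the 5 passed the test between the groups, with adjusted p from 0.257 (Osmr) to 0.707 (Wdr66).

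Further genes of the secretory route did not pass either. Of 34 other folding and stress genes 0 were called, 21 had a higher mean and the median log2 change was 0.01. The smallest p were those of the degradation factor gene Faf2 (0.15, adjusted p = 0.208), the apoptosis effector gene Bak1 (0.12, adjusted p = 0.271) and the ER lectin gene Os9 (0.12, adjusted p = 0.334). Of the 34, 1 (Bak1) had all reverted arrays above all quiescent arrays, against 4.64% of all genes. Of 21 genes of the translocon, signal processing and N-glycosylation 0 were called (median 0.02), and the oligosaccharyltransferase genes Stt3b (-0.08, adjusted p = 0.345) and Rpn1 (-0.13, adjusted p = 0.372) and the translocon gene Sec61b (-0.08, adjusted p = 0.405) came first. Stt3b, Rpn1 and Sec61b had an r with Hspa5 of 0.90, 0.92 and 0.45, and the median over the 21 genes was 0.52. Over the 34 other folding and stress genes the median r was 0.43, and Faf2, Bak1 and Os9 stood at -0.27, -0.23 and -0.75.

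Of 24 genes of cargo export from the ER 0 were called, with a median of 0.00. The retrieval receptor gene Kdelr3 had the smallest p there (log2 change 0.25, adjusted p = 0.354), followed by the coat genes Sec13 (0.08, adjusted p = 0.425) and Sec23a (0.06, adjusted p = 0.472). Of 12 genes of collagen folding and modification 0 were called, and 3 had all reverted arrays above all quiescent arrays, against 4.64% of all genes and 7.79% of those above the median level, where 11 of the 12 lie. They were the prolyl hydroxylase genes P3h2 (0.45, adjusted p = 0.0611) and P4ha3 (0.17, adjusted p = 0.154) and the collagen galactosyltransferase gene Colgalt1 (0.09, adjusted p = 0.298). P4ha3 lay below the median level (percentile 38.6), so that P3h2 and Colgalt1 alone compare with the 7.79%. P3h2 measured 12.43, 12.64, 12.47 and 12.46 in the 4 reverted arrays, against 12.10, 12.06, 11.81 and 12.25 in the 4 quiescent arrays.

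Other cells and responses varied between the arrays as well, and in RNA of sorted cells fewer cells of a type and less RNA per cell cannot be told apart. All 11 stellate markers had a lower mean in reverted cells (median log2 change -0.03), and their mean per array ran from 13.16 to 13.24 in reverted and from 13.24 to 13.29 in quiescent arrays. Of the 11, 1 was called, Gfap, which fell by 0.49 on the log2 scale (limma adjusted p = 0.0182). Gfap, Ngfr (-0.20, adjusted p = 0.176) and Colec11 (-0.08, adjusted p = 0.31) had all reverted arrays below all quiescent arrays, against 4.09% of all genes. The retinol-esterifying enzyme gene Lrat averaged 14.04 in reverted and 14.05 in quiescent cells. All 12 hepatocyte markers had a higher mean in reverted cells, 0 were called, and their mean per array ran from 9.12 to 9.69 in reverted and from 8.40 to 9.47 in quiescent arrays. Hepatocytes also express many of the 35 genes. Their markers were highest in reverted array 1 (9.69), while quiescent array 3 stood at 9.05 within a quiescent range that overlaps. The mean of 10 markers of lymphoid cells and of plasma cells, of which the latter are rich in ER chaperones, ran from 6.74 to 6.82 in reverted arrays. In quiescent arrays it ran from 6.71 to 6.86. The macrophage, endothelial, cholangiocyte and portal fibroblast or mesothelial means ran from 6.89 to 7.06, 8.32 to 8.84, 7.01 to 7.11 and 8.10 to 8.31 in reverted arrays. In quiescent arrays they ran from 6.80 to 6.99, 8.17 to 8.45, 7.01 to 7.24 and 7.96 to 8.07. Of the 9 portal fibroblast and mesothelial markers 2 rose, Dpt (log2 change 1.69, limma adjusted p = 0.0174) and Gas6 (0.86, adjusted p = 0.0194), while the other 7 had a lower mean. The macrophage marker Lyz2 (0.59, adjusted p = 0.129), the endothelial marker Clec4g (0.50, adjusted p = 0.063) and the hepatocyte markers Hpx (0.44, adjusted p = 0.0981) and Apoa1 (0.72, adjusted p = 0.169) did not pass but had all reverted arrays above all quiescent arrays. Over all genes 4.64% showed such a separation. Of the 8 macrophage markers 5 had a lower mean in reverted cells, and of the 8 endothelial markers 7 had a higher mean. The part of other cell types in the levels of the 35 genes was not tested. The adjustment for hepatocyte markers cannot fully separate that part from the group, since all 12 markers had a higher mean in reverted cells. The mean of 13 immediate early genes, which respond to cell isolation, was 13.10 in reverted array 1 within a reverted range of 13.03 to 13.14, and 12.92 in quiescent array 3, the lowest of a quiescent range of 12.92 to 13.13. The mean of 10 cytosolic heat shock genes was the lowest of the reverted group in reverted array 1 (12.33) and the highest of the quiescent group in quiescent array 3 (12.76).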

How the data were processed

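Gene expression was measured on 8 whole-transcript arrays of sorted stellate cells, with 4 arrays per group. The authors deposited log2 values from RMA (background correction, normalization across arrays, summary per probe set), per the submitters' processing notes. Version, settings and build are not given in the sources used here. Values ran from 4.49 to 14.8, array medians over all probe sets from 7.66 to 7.74, and 0 columns were without a sample. The number of arrays limits the precision.

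The platform's annotation gave 21789 of 35556 probe sets a single symbol, 1621 several and 12146 none or no entry. The probe set with the highest mean per gene left 19938 genes, with no filter on dim genes. Of the Entrez identifiers, 21698 matched RefSeq's GRCm38.p6 table, and 0 symbols were updated. The groups were compared in R 4.3.3 with limma 3.58.1 (lmFit, then eBayes; 2-sided, no covariate), with Benjamini-Hochberg adjustment over all genes and a threshold of 0.05. The steps were tested on simulated data. Promoters and their coordinates came from RefSeq (GRCm38.p6). Plots used matplotlib 3.10.9 under Python 3.11.15.

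The 35 genes and all lists were chosen with earlier results of these data known. Values per array are given for genes called, separated between groups, among the 6 smallest p or the 6 largest changes, and for 11 core genes. The 5 other secretory and stress response lists are named by called genes and the 3 smallest p, marker genes by calls or separated groups once their values were seen, and likeness to Hspa5 by the 5 highest r. The alternatives were quantile normalization, median centring, 2 filters on dim genes, 2 other choices of probe set, array weights, robust variance with an intensity trend, the replicate number as a block, 2 covariates, and leaving out each array. Leaving out reverted array 1 and quiescent array 3 together was added after the data were seen.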

Additional observations from a re-analysis of the deposited data

Results flagged for a closer look

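In 4 of the 70 sets of 4 arrays that were checked (35 genes in 2 groups), a single array lay far from the other 3 of its group by Dixon's ratio, at its 95% critical value. Chance gives about 1 such set in 20. All 4 concerned quiescent array 3, which read 10.41 for Dnajb11 (next lowest quiescent array 10.80), 12.17 for Dnajc3 (12.38), 11.33 for Pdia6 (11.70) and 10.08 for Derl2 (10.35). These genes are co-chaperones of BiP, a disulfide isomerase and a derlin, and their deviations are not independent, since they vary together over the arrays.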

How the results depend on the processing

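Of the 35 genes, 0 were called higher, in place of 1, after quantile normalization, with an intensity trend and robust variance, with the replicate block, with either covariate, and without reverted array 1 and quiescent array 3 together. The number ran from 0 to 1 with each array left out. Genes called lower numbered 1 (Derl3) without those 2 arrays, through which alone its groups overlap. Over all genes the 142 calls became 219 after quantile normalization, 306 with array weights, 63 with the replicate block, 21 with the hepatocyte and 86 with the immediate early gene covariate, and 56 without the 2 arrays. They ran from 54 (without reverted array 4) to 247 (without quiescent array 4) with each array left out, and were 59 without reverted array 3 and 73 without quiescent array 1. Edem2 had an adjusted p of 0.123 with the replicate block. Arrays of the same number did not deviate together, with correlations from -0.15 to 0.08 over 4 pairs. These values show no pairing by number, but a weak pairing could give such values as well.

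The median log2 change of the 35 genes stayed negative in all 20 alternatives, from -0.12 without quiescent array 3 to -0.03 with the hepatocyte covariate or without reverted array 1, and 23 to 31 of 35 genes had a lower mean where all were measured. The median r within groups was 0.71 after median centring, 0.69 without the lower 50% of genes by level, 0.18 without the 2 arrays, and from 0.40 to 0.65 with each array left out.

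Of 696 values of single genes, 31 turned direction, in 10 genes that were not called. After quantile normalization they were Atf6 (-0.0018), Atf4 (-0.041), Pdia5 (-0.044) and Asns (0.0014). After median centring it was Pdia5 (-4.4e-05). With the hepatocyte covariate they were Eif2ak3 (0.014), Ddit3 (0.21), Hspa5 (0.0060), Pdia4 (0.017) and Dnajc10 (0.015). With the immediate early gene covariate they were Atf6 (-0.0011), Atf4 (-0.032) and Pdia5 (-0.0057). With each array left out the log2 change ran from -0.074 to 0.021 for Eif2ak3, from -0.0063 to 0.060 for Atf6, from -0.025 to 0.067 for Atf4, from -0.15 to 0.11 for Ddit3, from -0.072 to 0.033 for Pdia4, from -0.030 to 0.043 for Pdia5 and from -0.13 to 0.0011 for Derl2. The cause was not tested. Background levels were not used here, so changes of Derl3, Chac1, Trib3 and Asns, which lie below the median level, may be understated.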
